A study of Homo sapiens with 6 samples.

Results

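The BCL2 family of apoptosis genes was followed through knockdown of TRIM28 in bladder cancer cells. The 10 members are named genes, taken by symbol from a table of read counts for 78932 genes: the anti-apoptotic BCL2, BCL2L1 (BCL-xL), BCL2L2 (BCL-w) and MCL1, the pore-forming effectors BAX and BAK1, and the BH3-only genes BID, BIK, BCL2L11 (BIM) and PMAIP1 (NOXA). All 10 were found, and 9 of them had enough reads to be tested, which here means 10 counts or more in no fewer than 3 of 6 libraries. BIK did not.

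Proteins of this family decide whether the outer membrane of the mitochondrion stays intact. BAX and BAK1 open pores in that membrane and let cytochrome c out, the anti-apoptotic members hold them in check, and the BH3-only members either bind and block the anti-apoptotic ones or activate the effectors. Many tumours, carcinomas of the bladder among them, lean on anti-apoptotic members for survival.

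T24 is an established urothelial carcinoma cell line. The study asked which genes change when TRIM28, a transcriptional corepressor that also acts as a SUMO and ubiquitin E3 ligase, is silenced. Cultures, grown in medium with serum, were transfected through KeygenMAX3000 with either a control siRNA (siNC) or siRNA against TRIM28 (siTRIM28), with 3 cultures of each named as biological replicates and all 6 placed in batch 1. Poly(A) RNA went into a stranded library. The time from transfection to harvest and the siRNA used for sequencing are not given in the sources used here. All cultures come from 1 cell line. A p-value therefore sets the difference between groups against the spread between these libraries only.

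Total counts per library ran from 12989362 to 13942383 in siNC and from 11712623 to 14018052 in siTRIM28. The share of mitochondrially encoded transcripts was 4.95% to 5.29% in siNC and 5.72% to 6.29% in siTRIM28, without overlap, and its part in the results was not tested. The siNC replicate 3 and siTRIM28 replicate 1 libraries stood apart from their groups: a chi-square of the counts over genes per degree of freedom was 4.17 and 4.22 for the former against its partners and 6.25 and 5.65 for the latter, while it was 1.08 for the other siNC pair and 1.22 for the other siTRIM28 pair. These close pairs thus differed by little more than read sampling. Whether they are independent cultures, as labelled, was not tested. If they are not, n is below 3 a group, and intervals and p-values are too narrow. With the close pairs summed, 3 members were called higher and 2 lower, as in the main fit. Of 12 urothelial markers, 4 passed the count minimum (UPK1A, FOXA1, PPARG and TP63), and UPK1B and KRT20 had 0 counts in every library. The keratins KRT7, KRT8 and KRT18 were measured, whereas EPCAM, CDH1 and KRT19 fell below the minimum. None of 5 leukocyte and none of 3 endothelial markers passed it, with CD3E and CDH5 at 0 counts throughout and summed levels of at most 0.470 and 1.01 CPM (counts scaled to a common library size by the TMM factors of edgeR). The summed level of the urothelial list moved from between 10.7 and 11.4 CPM in siNC to between 13.4 and 14.9 CPM in siTRIM28. Of its 4 tested markers, 2 were called higher, UPK1A (mean 0.874 to 3.41 CPM) and TP63 (0.469 to 0.966 CPM). PPARG (7.14 to 7.52 CPM) and FOXA1 (1.63 to 1.46 CPM) were not called. The 6 epithelial markers moved from between 189 and 197 CPM to between 207 and 215 CPM, with 2 of the 3 tested called higher. The 4 fibroblast markers moved from between 0.939 and 1.51 CPM to between 2.57 and 3.97 CPM, of which COL1A1 passed the minimum and was called higher. Of all genes tested, 21.3% were called higher. The 5 mesenchymal markers, which include VIM and FN1, summed to 2280 to 2330 CPM and 2260 to 2360 CPM, with 1 called higher (VIM, log2 fold change 0.33) and 1 called lower (CD44, -0.72). The part of these shifts in the members' values was not tested.

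The targeted gene was read first. TRIM28 stood at 102, 101 and 108 CPM in siNC replicates 1, 2 and 3 and at 9.28, 8.11 and 9.21 CPM in siTRIM28. Every siTRIM28 culture lay far below every siNC culture. The log2 fold change, siTRIM28 over siNC throughout, was -3.54 (SE 0.0723; adjusted p = 1.03e-10 from the quasi-likelihood test of edgeR, adjusted by Benjamini-Hochberg over the 18474 genes tested).

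Of the 10 members, 3 rose (PMAIP1, BAK1 and BCL2L2), 2 fell (BCL2L1 and BCL2), 4 did not pass the test at an adjusted p of 0.05 (MCL1, BAX, BID and BCL2L11) and BIK was not tested. As counted, the changes crossed the roles in the family. The genes that rose included 1 anti-apoptotic member, 1 effector and 1 BH3-only member, and both genes that fell were anti-apoptotic. The anti-apoptotic member that rose, BCL2L2, shares its strand and part of its span with a readthrough gene that fell, so its value is uncertain. The knockdown moved a large part of the transcriptome: 41.8% of the genes tested were called, 21.3% higher and 20.5% lower. The count of 5 called among 9 tested members stands against that share and is no result about the family as a whole. The groups did not overlap for 5 of the 9 tested members and for 52.0% of all tested genes. The median log2 fold change was 0.23 over the 9 tested members and 0.02 over all genes tested. In RNA from whole cultures, a smaller number of cells carrying a transcript and less of it per cell cannot be told apart.

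**Figure D1:**
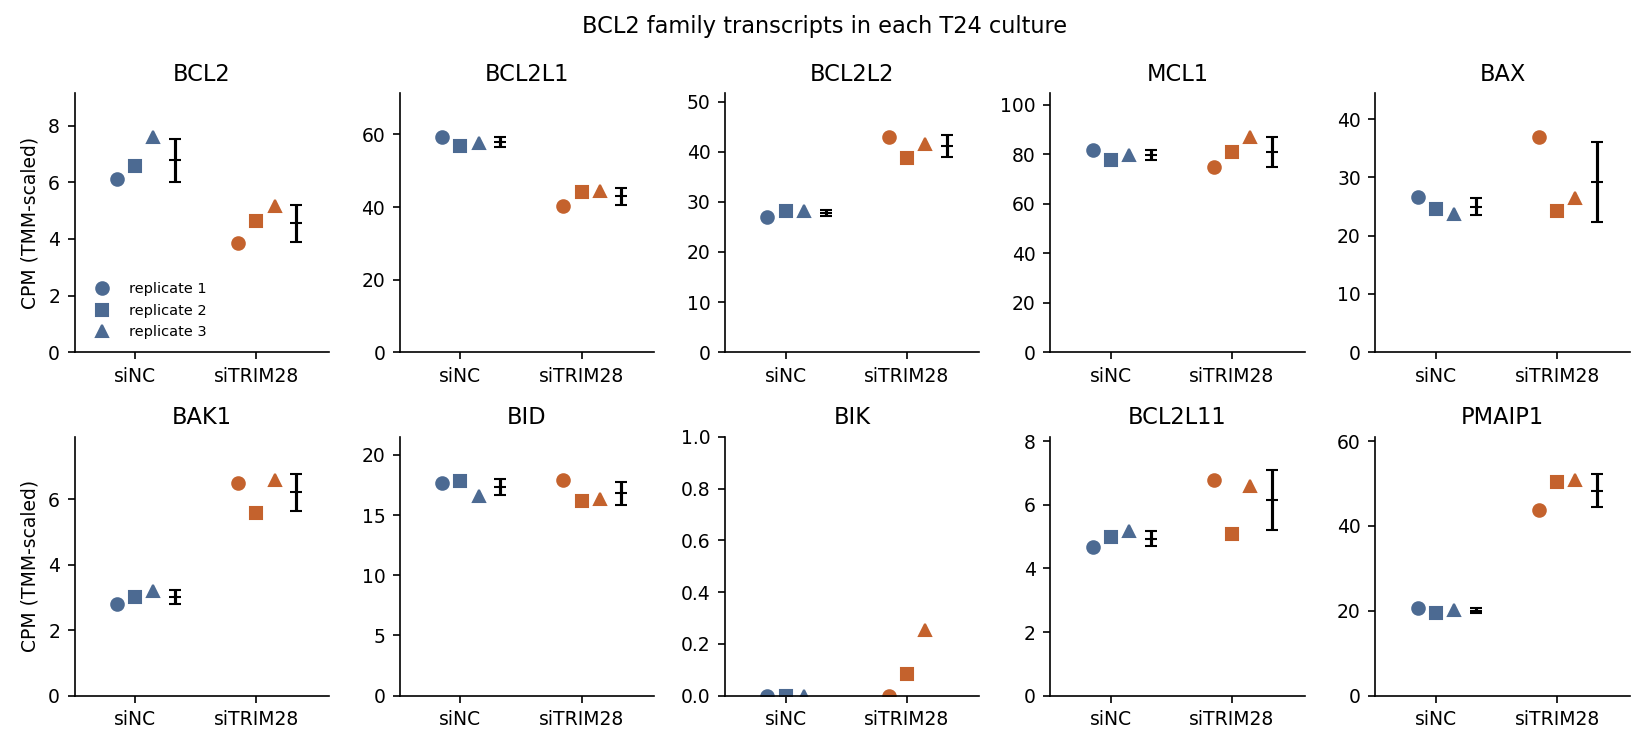
Level of each of the 10 members in every culture, in TMM-scaled CPM on axes that start at 0 and differ between panels; points are replicates and the bars at the side show the mean ± SD of 3 cultures (none is drawn for BIK). PMAIP1, BAK1 and BCL2L2 lie higher in all 3 siTRIM28 cultures, BCL2L1 and BCL2 lie lower, and the siTRIM28 replicate 1 point of BAX, at 37.0 CPM, is apart from the other two.

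PMAIP1 encodes NOXA, a BH3-only protein that binds MCL1 and promotes its breakdown. The gene (ENSG00000141682) lies on chromosome 18 from 59899996 to 59903537 on the plus strand of GRCh38. Its level was 20.6, 19.4 and 20.2 CPM in siNC replicates 1, 2 and 3 (mean 20.1 ± 0.594, SD, n = 3) and 43.8, 50.4 and 50.8 CPM in siTRIM28 (48.3 ± 3.90). The siTRIM28 cultures all lay above the siNC cultures, and the lowest of them was replicate 1. PMAIP1 rose 2.40-fold, a log2 fold change of 1.27 (SE 0.0739; 95% interval 1.10 to 1.43; adjusted p = 1.52e-07, edgeR with Benjamini-Hochberg adjustment). This was the largest change in either direction among the 9 members tested, and 347 of the 18474 genes tested had a higher log2 fold change. An unnamed gene on the opposite strand (ENSG00000310295), sharing 238 bases with PMAIP1, also rose, by 1.15 on the log2 scale (SE 0.148). It held 77 to 88 counts per library in siNC and 153 to 191 in siTRIM28, against 258 to 286 and 597 to 614 for PMAIP1. Whether the counting used strand is not given in the sources used here, so reads of such partners cannot be told apart in the shared bases.

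BAK1 is the effector that sits in the outer mitochondrial membrane before any death signal and is held there by MCL1 and BCL-xL. It lies on chromosome 6 from 33572547 to 33580293 on the minus strand (ENSG00000030110). The level was low, at 2.81, 3.03 and 3.21 CPM in siNC (mean 3.02 ± 0.204, n = 3) and 6.50, 5.57 and 6.59 CPM in siTRIM28 (6.22 ± 0.561), from 39 to 42 and 66 to 91 counts per library. The groups did not overlap. BAK1 rose 2.06-fold (log2 fold change 1.04, SE 0.151, 95% interval 0.71 to 1.38; adjusted p = 1.89e-04, edgeR with Benjamini-Hochberg adjustment). The processed pseudogene copies BAK1P1 and BAK1P2 held at most 3 counts in any library. ENSG00000293518, which spans BAK1 on the other strand, held 5 to 7 counts in siNC and 12 to 18 in siTRIM28, a log2 fold change of 1.3 (SE 0.314).

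The stretch of 250 bases before the start of PMAIP1, BAK1 and BCL2L1 is shown for the BH3-only gene and the effector with the largest rises and for the most abundant member that fell, so that the sequence upstream of transcripts that moved in opposite directions can be read side by side. RefSeq windows were matched for 7 of the 10 members, with none for BCL2L2, MCL1 and BIK. The sequences are from RefSeq on GRCh38.p14, 5′ to 3′ on the strand of the gene, at chr18:59899746-59899995 (plus) for PMAIP1, chr6:33580277-33580526 (minus) for BAK1 and chr20:31723964-31724213 (minus) for BCL2L1, where the start used is the one farther upstream of the pair listed. Capitals mark matches on either strand to the TATA box (TATAAA), the CCAAT box (CCAAT), the GC box (GGGCGG), the E box (CACGTG), the core of a cyclic AMP response element (TGACGT) or the AP-1 site (TGANTCA).
PMAIP1: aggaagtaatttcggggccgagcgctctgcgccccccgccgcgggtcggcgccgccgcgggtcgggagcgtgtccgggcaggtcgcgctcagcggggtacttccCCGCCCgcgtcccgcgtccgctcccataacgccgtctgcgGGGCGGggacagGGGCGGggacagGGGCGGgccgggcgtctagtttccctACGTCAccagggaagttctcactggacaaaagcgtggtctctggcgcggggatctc
BAK1: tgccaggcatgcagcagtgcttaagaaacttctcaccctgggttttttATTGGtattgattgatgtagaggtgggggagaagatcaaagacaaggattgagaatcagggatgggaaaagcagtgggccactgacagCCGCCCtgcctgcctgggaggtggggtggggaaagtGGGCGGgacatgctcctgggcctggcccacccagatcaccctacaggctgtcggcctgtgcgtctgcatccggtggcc
BCL2L1: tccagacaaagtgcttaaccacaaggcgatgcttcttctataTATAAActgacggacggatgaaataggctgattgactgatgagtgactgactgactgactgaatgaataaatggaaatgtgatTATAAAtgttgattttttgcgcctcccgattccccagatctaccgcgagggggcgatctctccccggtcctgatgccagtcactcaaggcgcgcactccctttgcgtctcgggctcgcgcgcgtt

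The PMAIP1 window held 4 GGGCGG matches (GC boxes, letters that SP1 can bind), the nearest beginning 82 bases before the start, and a TGACGT match (letters that factors of the CREB and ATF group can bind) 56 bases before it. BAK1 had 1 CCAAT beginning 202 bases before the start and 2 GGGCGG, 114 and 78 bases before it. In the BCL2L1 window 2 TATAAA matches were found, 208 and 125 bases before the start. The windows not shown do not repeat this contrast. GGGCGG also occurred before members that were not called, with 4 matches in a BID window, 3 for BCL2L11 and 1 for BAX. BCL2, which fell, had neither TATAAA nor GGGCGG, and the window of the other BCL2L1 start had neither. No link between these letters and the direction of change was tested. Over 35116 windows of the same length in the RefSeq table, 42.6% held GGGCGG, 32.0% CCAAT, 10.7% TATAAA, 7.10% TGACGT, 6.34% CACGTG and 6.57% TGANTCA, and the CACGTG and TGANTCA letters were not in the windows shown. GGGCGG and CCAAT are therefore common letters in such windows. The GC content was 72.8% for PMAIP1 and 58.0% for BAK1. A match describes the letters and not occupancy by a factor.

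Among the anti-apoptotic members, BCL2L1 encodes BCL-xL, and also the shorter pro-apoptotic BCL-xS from the same gene, which counts per gene do not separate. It lies on chromosome 20 from 31664452 to 31723989 on the minus strand (ENSG00000171552). BCL2L1 stood at 59.4, 56.7 and 57.6 CPM in siNC (57.9 ± 1.37, n = 3) and at 40.3, 44.2 and 44.3 CPM in siTRIM28 (42.9 ± 2.30). All 3 siTRIM28 cultures were below all siNC cultures. The transcript fell to 0.741 of the control level (log2 fold change -0.43, SE 0.0608, 95% interval -0.57 to -0.30; adjusted p = 1.49e-04, edgeR with Benjamini-Hochberg adjustment). ABALON, a long noncoding RNA transcribed against BCL2L1 over 1903 bases, moved by nearly the same amount (log2 fold change -0.42, SE 0.0674), with 555 to 635 counts in siNC and 391 to 427 in siTRIM28.

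BCL2, the founding member, blocks apoptosis at mitochondria and the endoplasmic reticulum. It spans chromosome 18 from 63123346 to 63319769 on the minus strand (ENSG00000171791). Its level was 6.12, 6.57 and 7.61 CPM in siNC (6.77 ± 0.761, n = 3) and 3.86, 4.64 and 5.15 CPM in siTRIM28 (4.55 ± 0.653). The groups did not overlap, although the highest siTRIM28 value and the lowest siNC value were close. BCL2 fell to 0.670 of control (log2 fold change -0.58, SE 0.155, 95% interval -0.92 to -0.24; adjusted p = 0.0106, edgeR with Benjamini-Hochberg adjustment). Without siNC replicate 3 and siTRIM28 replicate 1, the pair of libraries that stood apart, the log2 fold change was -0.37 and the call was lost (adjusted p = 0.0724, edgeR), so 1 member rather than 2 was lower there.

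BCL2L2 encodes BCL-w, an anti-apoptotic relative of BCL-xL. The gene lies on chromosome 14 from 23298790 to 23311566 on the plus strand (ENSG00000129473). It was at 27.0, 28.1 and 28.1 CPM in siNC (27.7 ± 0.626, n = 3) and 43.0, 38.8 and 41.6 CPM in siTRIM28 (41.1 ± 2.15). Every siTRIM28 culture was above every siNC culture, so that BCL2L2 moved opposite to BCL2 and BCL2L1. The rise was 1.48-fold (log2 fold change 0.57, SE 0.0638, 95% interval 0.43 to 0.71; adjusted p = 2.61e-05, edgeR with Benjamini-Hochberg adjustment). This locus is crowded. The readthrough gene BCL2L2-PABPN1, which shares 4734 bases of span and the strand with BCL2L2, had 1687 to 1882 counts in siNC and 958 to 1402 in siTRIM28, a log2 fold change of -0.60 (SE 0.0720). BCL2L2 itself had fewer, 358 to 389 in siNC and 459 to 602 in siTRIM28. The downstream partner PABPN1, a poly(A)-binding protein gene, fell by 0.62 on the log2 scale (SE 0.0562). PPP1R3E on the opposite strand, sharing 4070 bases of span, rose by 0.72 (SE 0.112). How reads of shared exons were divided between BCL2L2 and the readthrough is not given in the sources used here, and the BCL2L2 value is uncertain for that reason.

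MCL1 encodes a short-lived anti-apoptotic protein that restrains BAK1 and is the main partner of NOXA. The gene lies on chromosome 1 from 150560895 to 150579597 on the minus strand (ENSG00000143384). MCL1 gave 81.6, 77.8 and 79.9 CPM in siNC (79.8 ± 1.90, n = 3) and 74.8, 80.9 and 87.2 CPM in siTRIM28 (80.9 ± 6.19). The siTRIM28 cultures held both the lowest and the highest value. The log2 fold change of 0.02 did not pass the test, and its 95% interval of -0.11 to 0.15 limits the difference in total MCL1 transcript at this depth (SE 0.0604; adjusted p = 0.814, edgeR with Benjamini-Hochberg adjustment). The long anti-apoptotic and short pro-apoptotic MCL1 transcripts were counted together.

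BAX, the effector that moves from the cytosol to mitochondria when activated, lies on chromosome 19 from 48954815 to 48961636 on the plus strand (ENSG00000087088). Its values were 26.6, 24.6 and 23.8 CPM in siNC (25.0 ± 1.41, n = 3) and 37.0, 24.3 and 26.4 CPM in siTRIM28 (29.2 ± 6.79). Only siTRIM28 replicate 1 lay above the siNC range. The log2 fold change was 0.23 (SE 0.130, 95% interval -0.05 to 0.52; adjusted p = 0.177, edgeR with Benjamini-Hochberg adjustment). It was 0.02 without siTRIM28 replicate 1, -0.01 with siNC replicate 3 also left out, and 0.34 with a call (adjusted p = 0.0436, edgeR) without siTRIM28 replicate 2. ENSG00000305635, which covers BAX on the other strand, held more counts than BAX in every library, 431 to 480 in siNC and 494 to 597 in siTRIM28 against 304 to 369 and 288 to 518. It rose by 0.38 on the log2 scale (SE 0.0721), and reads in the bases it shares with BAX cannot be told apart.

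The remaining BH3-only members gave values that did not pass the test. BID, which caspase-8 cuts to link death receptors to mitochondria, lies on chromosome 22 from 17734138 to 17774770 on the minus strand (ENSG00000015475). BID was at 17.7, 17.8 and 16.6 CPM in siNC (17.4 ± 0.646, n = 3) and 17.9, 16.2 and 16.3 CPM in siTRIM28 (16.8 ± 0.964). The groups overlapped, and the log2 fold change was -0.04 (95% interval -0.20 to 0.11; adjusted p = 0.690, edgeR with Benjamini-Hochberg adjustment). BCL2L11 encodes BIM, which can bind every anti-apoptotic member listed here, and lies on chromosome 2 from 111119378 to 111164352 on the plus strand (ENSG00000153094). Its level was 4.68, 4.98 and 5.17 CPM in siNC (4.95 ± 0.250, n = 3) and 6.78, 5.07 and 6.59 CPM in siTRIM28 (6.15 ± 0.940). Replicates 1 and 3 of siTRIM28 lay above the siNC range and replicate 2 lay within it. The log2 fold change was 0.32 (95% interval -0.01 to 0.65; adjusted p = 0.112, edgeR with Benjamini-Hochberg adjustment), and without siTRIM28 replicate 2 it was 0.43 with a call (adjusted p = 0.0432, edgeR). MIR4435-2HG, a long noncoding RNA gene that spans BCL2L11 on the opposite strand, fell by 0.23 on the log2 scale (SE 0.0508). It held 947 to 1050 counts in siNC and 749 to 874 in siTRIM28, against 65 to 69 and 60 to 95 for BCL2L11. Reads in the bases it shares with BCL2L11 cannot be told apart, so the BCL2L11 value is uncertain.

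BIK (ENSG00000100290, chromosome 22 from 43110750 to 43129712, plus strand), a BH3-only gene of the endoplasmic reticulum, had 0 counts in all 3 siNC libraries and 0, 1 and 3 counts in siTRIM28 replicates 1, 2 and 3. A count of 0 allows up to 3 counts, which is 0.214 to 0.253 CPM in these libraries and covers counting error only. No fold was computed, since both groups were at or under that limit.

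**Figure D2:**
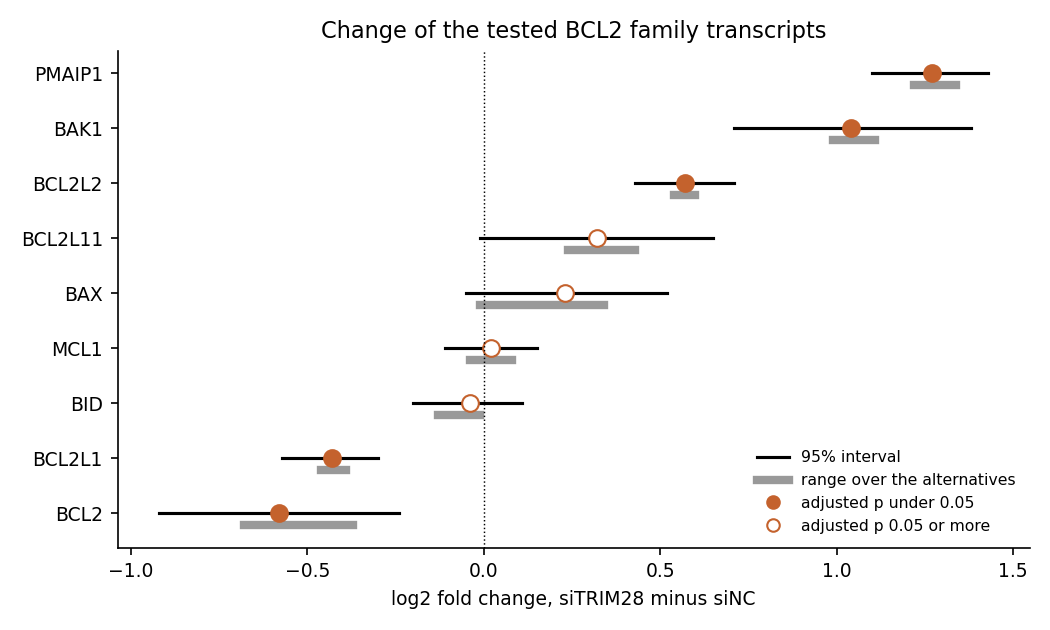
Log2 fold change, siTRIM28 over siNC, of the 9 tested members; black bars give the 95% interval from the fit to 3 cultures a group, grey bars the range over 15 alternatives, and filled points the members called. The intervals of PMAIP1 (1.10 to 1.43), BAK1 and BCL2L2 lie above 0, those of BCL2L1 and BCL2 below it, and those of BCL2L11, BAX, MCL1 and BID include it.

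With 3 cultures a group, an exact two-sided permutation test of 1 gene cannot give a p below 0.1. It gave that value for PMAIP1, BAK1, BCL2L2, BCL2L1 and BCL2, and 0.2 for BCL2L11, 0.4 for BID, 0.5 for BAX and 0.9 for MCL1.

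Levels of different members were set side by side per length, as RPKM (the TMM-scaled CPM divided by the gene's annotated length in kilobases). In siNC, BCL2L1 was highest at 13.8 ± 0.327 RPKM (SD, n = 3), followed by MCL1 at 12.8 ± 0.305, BAX at 9.67 ± 0.543 and PMAIP1 at 9.19 ± 0.272. BCL2L2 (5.73 ± 0.129) and BID (3.93 ± 0.146) came next, and BAK1 (1.36 ± 0.0921), BCL2L11 (0.708 ± 0.0357) and BCL2 (0.536 ± 0.0604) were low. Only BAX and PMAIP1 were neighbours whose cultures overlapped in that order. Under siTRIM28, PMAIP1 led at 22.1 ± 1.78 RPKM, ahead of MCL1 (13.0 ± 0.995), BAX (11.3 ± 2.62) and BCL2L1 (10.2 ± 0.547). MCL1 overlapped with BAX, and BAX with BCL2L1. On this scale PMAIP1 went from the fourth to the first place by mean and BCL2L1 from the first to the fourth, while BCL2L2 (8.49 ± 0.444), BID (3.80 ± 0.218), BAK1 (2.81 ± 0.254), BCL2L11 (0.880 ± 0.134) and BCL2 (0.361 ± 0.0518) kept their places. BCL2 was the lowest of the 9 tested members in both groups. The order rests on the annotated lengths, which count exons of all isoforms: in CPM, without the length correction, 7 members in siNC and 5 in siTRIM28 had another place. There MCL1 was first in both groups, PMAIP1 went from place 5 to 2 and BCL2L1 from place 2 to 3, and BAK1 was the lowest tested member in siNC.

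**Figure D3:**
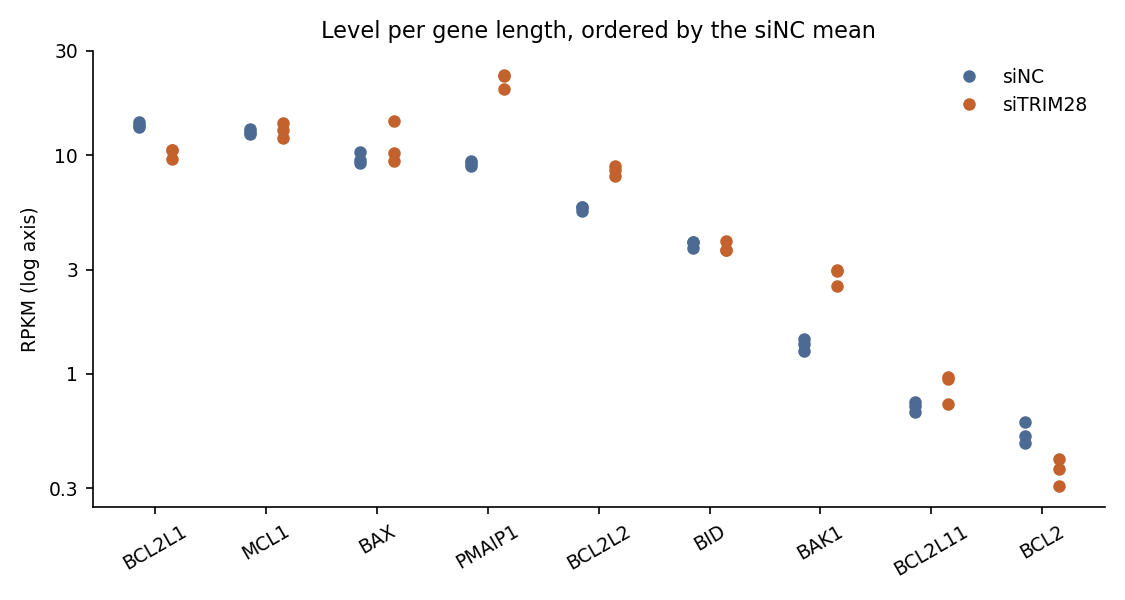
Level of each member per length in RPKM on a log axis, for siNC and siTRIM28, with points for the 3 cultures of each group (BIK is not drawn). PMAIP1 moves from 9.19 to 22.1 RPKM on average and passes BCL2L1, MCL1 and BAX, and the members between BCL2L2 and BCL2 keep their order.

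Ratios between partners were formed within each culture as a description. PMAIP1 to MCL1, the ratio of NOXA transcript to that of its main target, was 0.718, 0.711 and 0.721 in siNC and 1.67, 1.77 and 1.66 in siTRIM28. The groups were far apart, with narrow ranges in each, and the mean log2 ratio differed by 1.25. BAX to BCL2L1, often read as a ratio of effector to guardian, was 0.726, 0.705 and 0.671 in siNC and 1.49, 0.893 and 0.967 in siTRIM28. All siTRIM28 values exceeded the siNC values (log2 difference 0.64), and replicate 1, where BAX was high, gave the largest. BAX to MCL1 overlapped between groups, at 0.783, 0.762 and 0.718 against 1.19, 0.723 and 0.729. The size of these ratios rests on the annotated lengths. In CPM, PMAIP1 stayed below MCL1 in both groups (means 20.1 against 79.8 in siNC and 48.3 against 80.9 in siTRIM28). Since MCL1 hardly moved (log2 fold change 0.02), the change in PMAIP1 to MCL1 largely repeats that of PMAIP1 (1.27). No test was run on ratios.

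**Figure D4:**
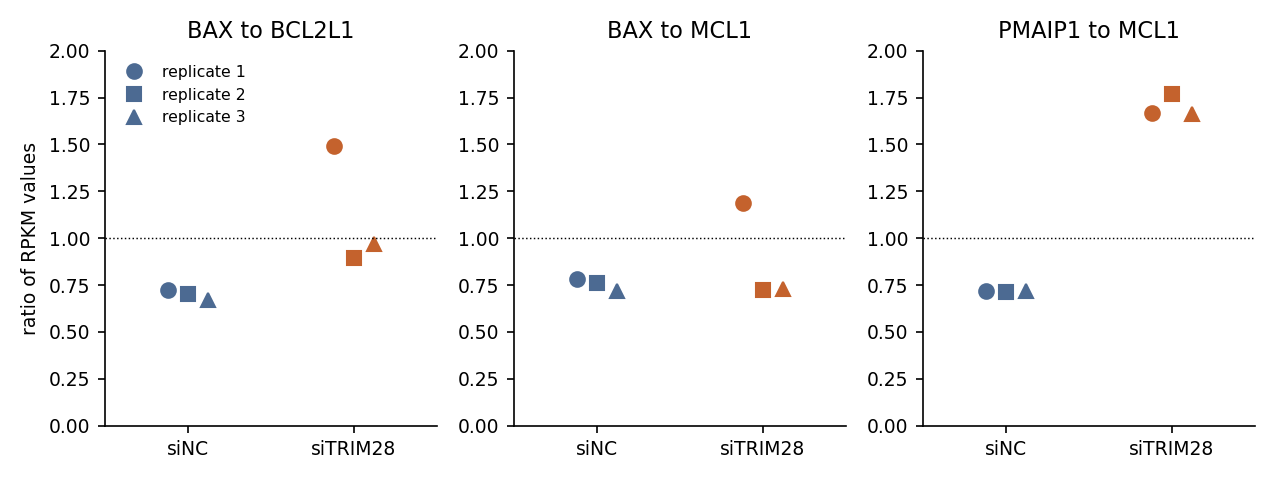
Ratios of RPKM within each culture for BAX to BCL2L1, BAX to MCL1 and PMAIP1 to MCL1, with a point for each of the 3 siNC and 3 siTRIM28 cultures. PMAIP1 to MCL1 lies between 0.711 and 0.721 in siNC and between 1.66 and 1.77 in siTRIM28, whereas the BAX to MCL1 points overlap.

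Among genes with a symbol, those whose course over the 6 libraries was nearest to that of PMAIP1 were FOSL1, BHLHE40 and EGR1. Likeness was the root mean square distance between log2 CPM values centred on the siNC mean, among genes with a symbol and a mean of at least 50 counts. It was 0.0330 for FOSL1, 0.0439 for BHLHE40 and 0.0521 for EGR1. Unnamed genes were not searched. FOSL1, which encodes the AP-1 subunit FRA-1, was at 183, 182 and 192 CPM in siNC and 414, 465 and 470 CPM in siTRIM28. BHLHE40 encodes a basic helix-loop-helix repressor and EGR1 an immediate early zinc finger factor. The log2 fold changes of FOSL1, BHLHE40 and EGR1 were 1.28, 1.23 and 1.31, and their closeness to that of PMAIP1 follows from how they were chosen.

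Around the members, 56 other genes of the apoptosis pathway were read in 7 lists, of which 50 passed the count minimum. Of these, 19 rose, 11 fell and 20 did not pass the test, with a median log2 fold change of 0.12. Set beside the 41.8% of all genes called, 30 of 50 called genes is a description of the lists only.

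Of 11 further BCL2 family genes, 8 were tested, 2 rose and 1 fell. BCL2L12, an atypical family member, rose (log2 fold change 0.52, SE 0.0692), as did BBC3, which encodes the BH3-only protein PUMA (0.41, SE 0.152; adjusted p = 0.0495, edgeR with Benjamini-Hochberg adjustment), a call lost in 8 of 15 alternatives. BCL2L13, which encodes a mitochondrial membrane protein known as a receptor for mitophagy, fell (-0.37, SE 0.0579). BCL2L10, BCL2L14 and BCL2L15 were below the minimum.

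Downstream of the pore, all 11 genes of the apoptosome and caspases were tested, of which 3 rose and 1 fell (median -0.03). APAF1, the scaffold that cytochrome c assembles into the apoptosome, rose by 0.53 on the log2 scale (SE 0.0988). DIABLO, which encodes the mitochondrial antagonist of inhibitors of apoptosis, fell by 0.39 (SE 0.0615). All 6 inhibitors of apoptosis were tested, of which 3 rose and 1 fell. BIRC3 (0.98, SE 0.0427), BIRC6 (0.70, SE 0.0789) and BIRC2 (0.45, SE 0.0558), which encode ubiquitin ligases that restrain caspases or cell death signalling, rose on the log2 scale. BIRC5, which encodes survivin, a protein also needed for chromosome segregation, fell by 1.70 (SE 0.0580) from 112 to 115 CPM in siNC to 32.9 to 37.3 CPM in siTRIM28.

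In the death receptor arm, 9 of 11 genes were tested, 5 rose and 1 fell. The receptors for TRAIL rose, TNFRSF10A by 0.80 (SE 0.0550) and TNFRSF10B by 0.39 (SE 0.0625) on the log2 scale, together with CFLAR (0.43, SE 0.0726), which encodes the caspase-8 inhibitor c-FLIP. RIPK1, the kinase at the branch between survival and death signals, fell by 0.84 (SE 0.0640). TNFSF10, the TRAIL ligand, and CASP10 were below the minimum. Of 4 mitochondrial partners of the family, the channel genes VDAC1 (0.33, SE 0.0381) and VDAC2 (0.19, SE 0.0540, lost in 5 alternatives) rose and MTCH2, which encodes a receptor for truncated BID, fell (-0.38, SE 0.0799).

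Of 5 genes that control the turnover of family proteins, the ligase genes HUWE1 (0.26, SE 0.0407) and FBXW7 (0.36, SE 0.0615) rose on the log2 scale. MARCHF5, a mitochondrial ligase gene, fell (-0.31, SE 0.0800), and the other 2 did not pass the test, so the list went both ways. Of 8 genes for transcription factors known to act upstream of BH3-only genes, 7 were tested, 2 rose and 5 fell (median -0.57). DDIT3, which encodes CHOP, a factor of the stress response that can drive BH3-only genes, rose by 0.91 (SE 0.0852). FOXO3 fell by 1.24 (SE 0.0814) and MYC by 0.81 (SE 0.0533). TP73 was below the minimum.

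**Figure D5:**
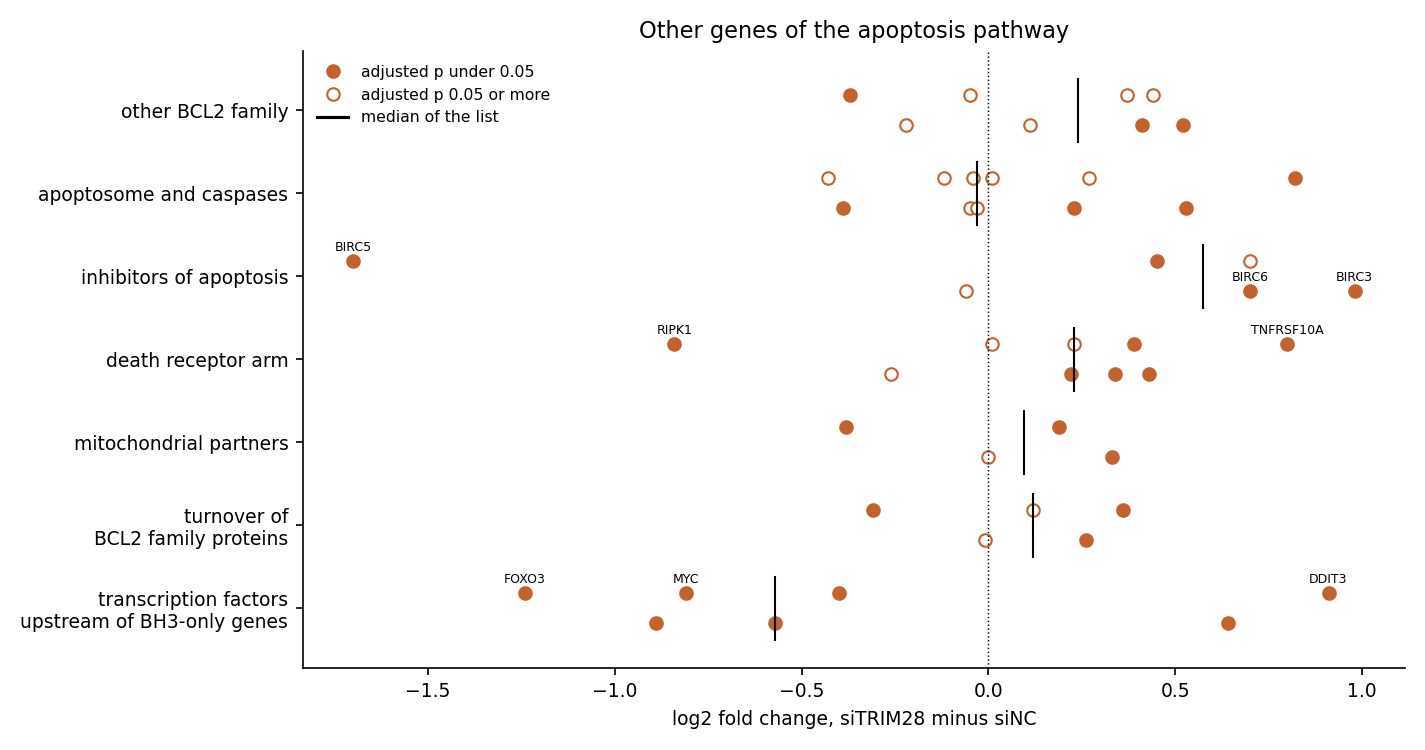
Log2 fold change, siTRIM28 over siNC, of each of the 50 tested pathway genes grouped by list, with filled points for genes called by the quasi-likelihood test and a line at the median of each list. The inhibitors of apoptosis range from -1.70 (BIRC5) to 0.98 (BIRC3), and 5 of the 7 tested transcription factor genes lie below 0.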

How the data were processed

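RNA-seq of 3 siNC and 3 siTRIM28 cultures of T24 was analysed from the raw counts per gene that the authors deposited, with GRCh38 coordinates. The submitters' processing notes name fastp 0.23.1, STAR 2.7.6a and featureCounts. The annotation release, the use of strand and the handling of duplicates are not given in the sources used here, so antisense and readthrough partners may share reads with a member. A second deposited table holds RPKM of genes the authors selected as changed and was not used.

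Genes that reached 10 counts in 3 or more of 6 libraries were fitted together in R 4.3.3 with edgeR 4.0.16 (TMM scaling, quasi-likelihood test, Benjamini-Hochberg adjustment over 18474 genes, threshold 0.05) and no covariate. The SE is the log2 fold change over the square root of F. CPM and RPKM were computed from the counts, the TMM factors and the gene lengths in the deposited table. DESeq2 1.42.0, other scalings, other filters, a replicate block and leaving out libraries were alternatives. The common biological coefficient of variation was 0.0733. On data simulated for this comparison over 18474 genes, 134 of 200 genes with a log2 change of 0.8 were recovered, 122 of 127 among those with a mean of at least 50 counts, and 11 unchanged genes were called. Smaller changes were not simulated. Far fewer genes changed there, with as many rises as falls, than the 41.8% called in the data. The simulated libraries were drawn independently, without close pairs like those in the data. For both reasons these rates may not carry over. The 95% intervals come from the fit and include the spread between libraries labelled as separate cultures, whereas the floor for a count of 0 covers counting error only.

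The members and lists were chosen with earlier results of these data known. The genes named are TRIM28, all members, every called gene of a pathway list with up to 4 of them, otherwise the 4 with the largest change, list genes below the minimum, and the 3 genes with a symbol nearest in pattern to the member that changed most. Some genes of the pathway lists that this rule names are not reported here by name, though they are in the counts and medians of their lists.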

Additional observations from a re-analysis of the deposited data

How the results depend on the processing

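Over 15 alternatives the number of genes changed ranged from 5876 (with the replicates that lay closest summed, siNC 1 with 2 and siTRIM28 2 with 3) to 8130 (without siTRIM28 replicate 1), and DESeq2 gave 5878. PMAIP1 (log2 fold change 1.22 to 1.34), BAK1 (0.99 to 1.11), BCL2L2 (0.54 to 0.60) and BCL2L1 (-0.46 to -0.39) kept their direction and call in all 15. Members higher numbered 3 to 5 when 1 library was left out, with 5 without siTRIM28 replicate 2, where BAX (0.34) and BCL2L11 (0.43) were called. Members lower numbered 1 without siNC replicate 3 and siTRIM28 replicate 1, a setting chosen after seeing the data, where BCL2 was -0.37 and BAX reversed to -0.01. Keeping every gene with at least 1 count called BAX (0.22, adjusted p = 0.0370 by edgeR). MCL1, not called in any setting, ranged from -0.04 (without siTRIM28 replicate 3) to 0.08 without 1 library and was -0.02 with close replicates summed. The cause of these shifts was not tested. Of the 30 pathway genes called, 23 kept the call in every alternative and 7 lost it in some (among them BBC3, FAS, TNFRSF1A, VDAC2, FOXO1 and E2F1), with 0 changes of sign.

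Replicate numbers are shared by both groups, and the sources used here do not say whether same-numbered cultures were paired. Over all tested genes, deviations from the group mean correlated by 0.05, -0.01 and 0.04 between same-numbered cultures. Such correlations mix counting noise with differences between cultures, so they cannot decide whether cultures were paired. With a replicate block, 7910 genes were called, against 7723 without it. No member's call changed (PMAIP1 1.26, BCL2 -0.57, BAX 0.22), though the adjusted p of BAX went from 0.177 to 0.0596 (edgeR).

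Members with few counts limit what can be read: BCL2, BAK1 and BCL2L11 rest on 39 to 97 counts per library, and BIK could not be tested.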
